A study of Mus musculus with 13 samples.

Results

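Hepatic stellate cells (HSC) were represented by 4 of the 13 arrays of the series, all of them cultured: 2 arrays after 1 day, 1 after 7 days and 1 after 14 days in DMEM with fetal bovine serum. They were set against the other 9 arrays, 3 each of hepatocytes, of Kupffer cells and of sinusoidal endothelial cells (LSEC), which had been sorted fresh and never cultured. All cells came from the livers of naive C57BL/6 mice aged 6 to 10 weeks, with no transgene, disease model or treatment named in the labels. The question was which genes kept every HSC array above, or below, every fresh array although the HSC arrays spanned 2 weeks of culture. No array of uncultured HSC was included, so a difference between cell types and an effect of culture cannot be told apart.

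Stellate cells lie between the sinusoidal endothelium and the hepatocytes and store vitamin A as retinyl esters in lipid droplets. In injured liver, and on plastic in the presence of serum, they turn into myofibroblasts: they build smooth muscle actin fibres, secrete fibrillar collagen and respond to platelet-derived growth factor and transforming growth factor beta. Hepatocytes are the parenchymal cells, Kupffer cells are the resident macrophages and LSEC line the fenestrated sinusoids.

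Values are probe-set intensities on a linear scale, 1 probe set per gene, and differences are on the log2(intensity + 83) scale, which understates the fold of genes with low values. Of 19537 genes with a probe set of their own, 12368 passed a filter on low values, above the pooled median of 224.5 on at least 2 arrays. A gene that is high on 2 HSC arrays alone passes that filter, so the genes that passed are not a neutral sample for counts of genes high in HSC. A gene was called higher in HSC when limma gave an adjusted p below 0.05 and a log2 difference of at least 1 against hepatocytes, against Kupffer cells and against LSEC, and called lower in the same way. The adjusted p printed for a gene is the largest of the 3, and the difference printed is that from the nearest fresh cell type unless stated. The 4 HSC arrays entered as one group, so that change over culture counted as spread. The sample titles number the replicates as biological for every group but the 7-day and 14-day HSC arrays. Nothing in them ties an array to an animal, so the p-values measure only the spread between these arrays, whose small number limits their precision.

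The 4 marker genes of cultured stellate cells were high on every HSC array. Acta2, smooth muscle actin, read 7461 and 9745 at day 1, 15224 at day 7 and 14597 at day 14, against 182.5 to 277.6 (median 229.3) on the fresh arrays. Tagln, the actin-binding protein transgelin, read 6697 and 7734 at day 1, 9351 at day 7 and 7935 at day 14, against 143.3 to 201.5 (median 157.0) on the fresh arrays. Neither gene had any overlap between the HSC and the fresh arrays. Des, the muscle-type intermediate filament desmin, read 2707, 2932, 3769 and 4019 on the HSC arrays in order of culture time, against 107.6 to 178.0 on the fresh arrays. Ankrd1, a nuclear ankyrin-repeat protein and common readout of YAP activity, read 11897, 12128, 8040 and 5817, against 96.2 to 491.5 (median 129.3) on the fresh arrays. The log2 differences were 5.12 for Acta2 (SE 0.212, from hepatocytes), 4.97 for Tagln (SE 0.11, from Kupffer cells), 3.99 for Des (SE 0.149, from Kupffer cells) and 4.14 for Ankrd1 (SE 0.212, from LSEC). Their adjusted p-values in limma were 1e-08, 2.3e-10, 5.2e-09 and 7e-08.

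Across probe sets the day 1 pair correlated at r = 0.993 and the day 7 and day 14 arrays at 0.9832, while day 1 and later arrays correlated at 0.924 to 0.9309. HSC arrays correlated with LSEC arrays at 0.8605 to 0.921, with hepatocyte arrays at 0.736 to 0.8282 and with Kupffer cell arrays at 0.7594 to 0.8124. Marker genes of hepatocytes and LSEC read higher on the day 1 HSC arrays than on the later ones. Summed over 22 hepatocyte markers the HSC arrays read 29716 and 15916 at day 1, 5172 at day 7 and 4946 at day 14, against 232773 to 252511 on the hepatocyte arrays. Alb, the albumin gene, read 8855 and 6285 at day 1, but 114.2 and 112.8 at days 7 and 14. Over 25 LSEC markers the HSC arrays read 34048, 32034, 18200 and 12554 in order of culture time, against 100715 to 144783 on LSEC arrays, and the endothelial cadherin gene Cdh5 read 6552, 5427, 237.3 and 421.7. Over 22 Kupffer cell markers they read 13816 and 17916 at day 1, 9514 at day 7 and 17804 at day 14, against 183468 to 185836 on Kupffer cell arrays. That list also summed to 13636 to 15172 on hepatocyte arrays and 9013 to 9729 on LSEC arrays, not far from the HSC sums. The LSEC list summed to 25854 to 29133 on Kupffer cell arrays and 6342 to 7839 on hepatocyte arrays. For the hepatocyte list these sums were 11475 to 15280 on Kupffer cell arrays and 2813 to 3042 on LSEC arrays. The Kupffer cell lectin gene Clec4f stayed at 183.6 to 244.6 on the HSC arrays. The lowest value of any probe set on any array was 10.6, so a reading above 0 does not show that a transcript was present. In bulk samples fewer cells of a type and less RNA per cell cannot be told apart.

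**Figure D1:**
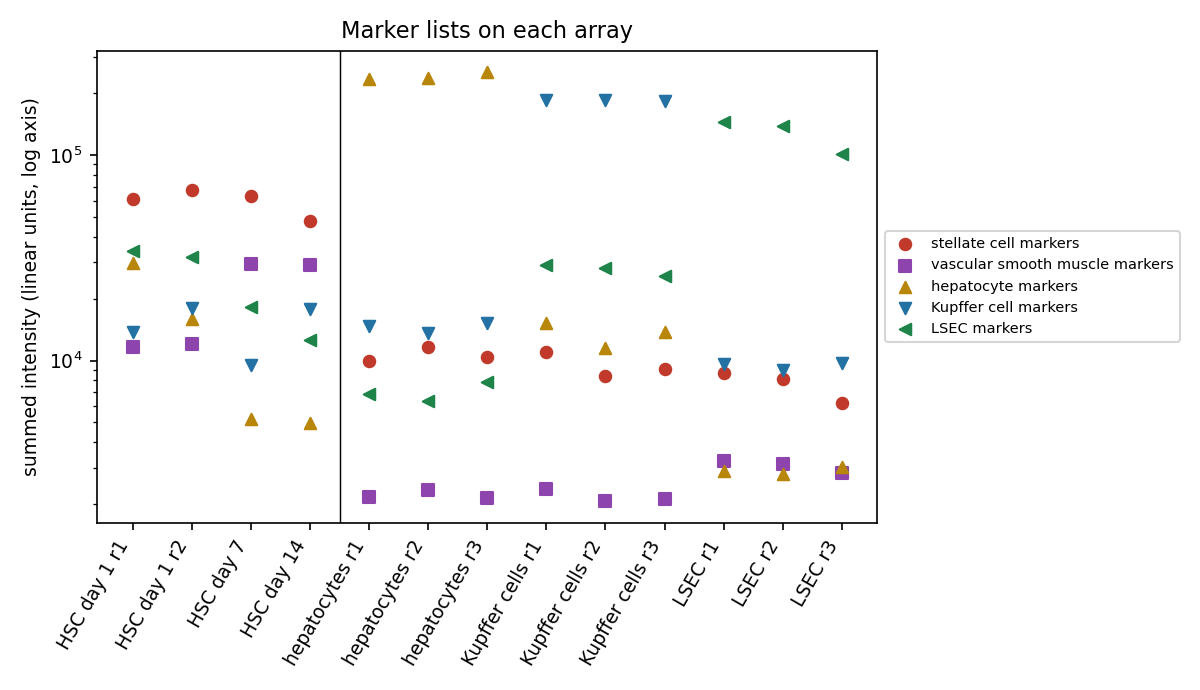
Summed intensity (linear units, log axis) of 5 marker lists on each of the 13 arrays, HSC left of the line and fresh cells right of it; each symbol is 1 list on 1 array. The stellate cell markers sum to 47966 to 67489 on the HSC arrays and to 6251 to 11608 on the fresh arrays, and the hepatocyte and LSEC sums on the HSC arrays are highest at day 1.

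Every HSC array lay above every fresh array for 845 of the 12368 genes (6.83%). For 373 genes (3.02%) HSC was called higher than each fresh cell type, and 360 (2.91%) met both conditions. The 13 genes called but not separated each had an HSC array that fell among the fresh ones. Of the 485 genes that were separated without a call, 404 failed only because a difference was under 1, 3 failed only on the adjusted p and 78 on both. The other direction was rarer: every HSC array lay below every fresh array for 605 genes (4.89%), 46 genes (0.372%) were called lower than each fresh cell type and 42 (0.34%) met both conditions. The median of all genes differed by -0.06 between HSC and the mean of the fresh cell types.

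The gap between the lowest HSC array and the highest fresh array was at least 1 on the log2 scale for 168 genes, at least 2 for 57 and at least 3 for 23. Among genes below, the gap was at least 1 for 7 and at least 2 for 0, with a largest gap of 1.43. The gene just inside the upper boundary was Tmem108, with a gap of 0.0024, and Ddr1 lay just outside at -0.0157. At the lower boundary Nfkbia lay just inside, with a gap of 0.0265, and H2-Q4 just outside at -0.2416. Ddr1 and H2-Q4 are named here for their place at the boundary, after their values were seen. H2-Q4 belongs to a family of near-identical class I genes, so its probe set may read its relatives too. LSEC was the nearest fresh cell type for 168 of the 360 higher genes (46.7%), hepatocytes for 124 (34.4%) and Kupffer cells for 68 (18.9%).

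The widest gaps belonged to genes of prostanoid synthesis, contraction, matrix adhesion and growth factor signalling. Ptgs2, the inducible cyclooxygenase that starts prostaglandin synthesis, read 7876 and 7657 at day 1, 13292 at day 7 and 13618 at day 14, against 122.4 to 237.7 (median 157.8) on the fresh arrays. Its lowest HSC value stood 4.59 above its highest fresh value on the log2 scale, and the difference from Kupffer cells was 5.12 (SE 0.202, limma adjusted p = 4.9e-09). Tagln and Acta2 followed with gaps of 4.57 and 4.39. Postn, the matrix protein periostin, read 4405, 5692, 5300 and 8176 in order of culture time, against 64.9 to 184.3 on the fresh arrays, a gap of 4.07. Ddr2, a receptor kinase for fibrillar collagen, read 3592, 5215, 3567 and 4673, against 96.8 to 143.8 on the fresh arrays, a gap of 4.01. All of these genes were picked for the width of this gap, so their lack of overlap follows from the selection.

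Secreted ligands were next. Ereg, the EGF family ligand epiregulin, read 3926, 5104, 6176 and 5320 on the HSC arrays, against 88.4 to 173.6 on the fresh arrays. Inhba, the activin A subunit, read 7026, 7182, 6346 and 6021, against 143.5 to 345.9 on the fresh arrays. Fgf2 read 3738, 3217, 4484 and 4056, against 90.1 to 195.1 on the fresh arrays. The gaps of these growth factor genes, for which they were picked, were 3.97, 3.83 and 3.57. Pdgfrb, the PDGF receptor that marks mesenchymal cells around vessels, read 3176 and 3531 at day 1, 5447 at day 7 and 5278 at day 14, against 105.6 to 155.9 on the fresh arrays. Foxf1, a forkhead factor of the visceral mesenchyme, read 5257, 5436, 4973 and 3507, against 100.6 to 213.0 on the fresh arrays. Prss23, a secreted serine protease gene, read 3746 to 5806 in HSC and 133.1 to 213.4 on the fresh arrays. The limma adjusted p-values of these 6 genes lay between 6.5e-10 and 9.4e-09. Tnc, the matrix protein tenascin C, read 9181 to 11697 on the HSC arrays and 65.8 to 690.1 (median 93.3) on the fresh arrays, with LSEC highest.

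**Figure D2:**
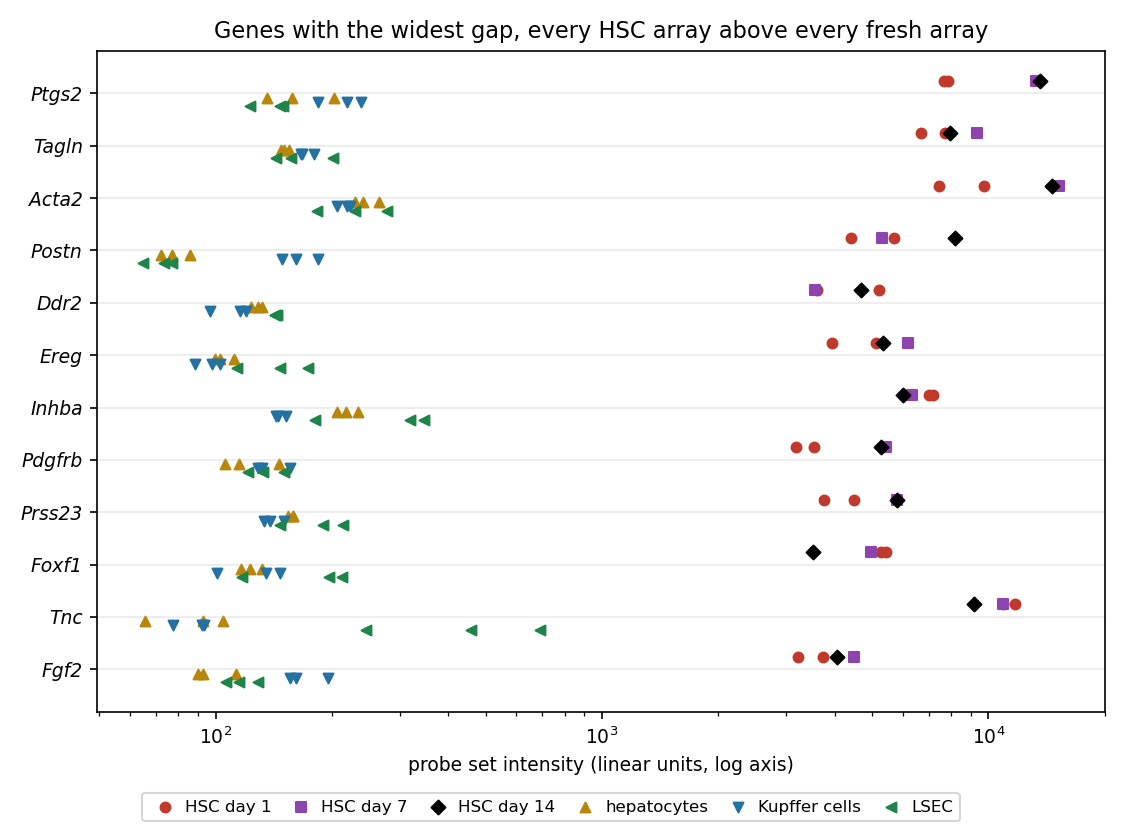
Probe-set intensity (linear units, log axis) of the 12 genes with the widest gap; each symbol is 1 array, HSC by culture day and the fresh cell types by shape. In each gene all 4 HSC symbols lie right of all 9 fresh symbols, from a gap of 4.59 for Ptgs2 down to 3.57 for Fgf2.

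Some of these genes hardly moved across the HSC arrays. Thbs1, the adhesive glycoprotein thrombospondin 1, read 16682, 17142, 16884 and 17139 in order of culture time, a range of 0.04 on the log2 scale, against 214.6 to 1902 (median 337.5) on the fresh arrays. Dcn, the collagen-binding proteoglycan decorin, read 11557, 11402, 11432 and 12317, a range of 0.11, against 181.1 to 893.4 (median 543.9). In both genes the spread between the fresh arrays was wider than that between the HSC arrays. Both were picked for their small HSC range and the fresh arrays mix cell types, so no conclusion is drawn from this comparison. The other 6 genes with the smallest HSC ranges among called genes with a gap of at least 2 were Chst11 at 0.24, Inhba at 0.25, Zfp469 at 0.30, Mustn1 at 0.30, Tnc at 0.35 and Ncs1 at 0.35. Chst11 makes chondroitin sulfate and Ncs1 is a neuronal calcium sensor. Among the 360 genes, the 4 HSC arrays lay within 1 log2 unit for 134 (37.2%), against 83.3% of all genes, and the median HSC range was 1.34 against 0.46 over all genes. The filter and the calls select genes with high values in HSC, so these 2 figures are descriptions.

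Most of the tested genes of contraction and of myofibroblast activation were separated from the fresh arrays. Of 31 contractile and actin-binding genes tested, 14 were higher in HSC and 0 lower, beside 3.02% of all genes higher. Every HSC array lay above every fresh array for 24 of them, beside 6.83% of all genes. Their median difference from the mean of the fresh cell types was 1.95, against -0.06 over all genes. The same shares of all genes, 3.02% and 6.83%, stand beside the counts of higher and separated list members that follow. Myl9, a regulatory myosin light chain, read 1375 and 2137 at day 1, 9661 at day 7 and 7734 at day 14, against 86.3 to 148.1 on the fresh arrays, and the difference from Kupffer cells was 4.29 (SE 0.53, limma adjusted p = 5.6e-05). Cnn2, a calponin that binds actin, read 4817, 3982, 6110 and 5229, against 76.9 to 1448 on the fresh arrays, a difference of 1.77 from LSEC. Fermt2, which activates integrins at adhesions, and Smtn, smoothelin, were separated but not called, with differences of 0.92 from hepatocytes and 0.65 from LSEC. Of 23 myofibroblast activation genes 15 were higher and 0 lower, with a median difference of 3.1, and every HSC array lay above every fresh array for 17. At an unadjusted p below 0.05 against all 3 cell types limma also had 0 members lower in the contractile, myofibroblast, stellate cell, matrix, signalling, transcription factor, guidance, adhesion, cytokine and vasoactive lists, while 1 collagen gene and 2 retinoid genes were lower. The share of all genes at this unadjusted threshold was not counted, here or for the lists below. Timp1, an inhibitor of matrix proteases, read 2794, 3129, 8402 and 8138, against 111.3 to 317.3 on the fresh arrays. Ccn2, the matricellular growth factor CTGF, read 15916 to 19321 on the HSC arrays, above every fresh array, but LSEC reached 10326, and with a difference of 0.96 it was not called. It passed without LSEC replicate 3 or without the 14-day array, where the difference reached 1.

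The calponin gene Cnn1 of smooth muscle was close to the fresh level at day 1. It read 157.7 and 160.3 at day 1, 5888 at day 7 and 6146 at day 14, against 115.4 to 142.7 on the fresh arrays. All 4 HSC arrays lay above the fresh ones, by a gap of 0.09, but the range over the HSC arrays was wide and the adjusted p in limma was 0.073, so it was not called. It passed when either day 1 array was left out, at adjusted p = 0.0154 and 0.0161 in limma.

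Targets of the YAP and SRF factors, which respond to tension and to free actin, had 10 of 25 members higher and 0 lower, with a median difference of 1.5. Fhl1, a LIM-domain protein of muscle, read 4093, 7118, 11310 and 8104, against 172.0 to 272.5 on the fresh arrays, and F3, tissue factor, read 3938, 4421, 8645 and 9711, against 129.2 to 462.0. Neither overlapped. Tead1, the DNA-binding partner of YAP, read 4014, 5116, 5291 and 5681, against 182.0 to 2035, with LSEC nearest at a difference of 1.37 (SE 0.21, limma adjusted p = 0.00035). Axl, a receptor kinase gene, was not called: its HSC values of 5678 to 7261 fell below the highest Kupffer cell array at 8369.

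The promoter windows of 3 of these genes are shown because they hold the letters that TEAD factors (GGAATG) or SRF (the CArG box) can bind, and the genes were high together. The windows are the 250 bases before the RefSeq gene start on GRCm38.p6, written along the gene's strand, with matches on either strand in capitals. Acta2 lies on the minus strand at chr19:34255374-34255623, Ankrd1 on the minus strand at chr19:36119845-36120094 and Myl9 on the plus strand at chr2:156775214-156775463. In Acta2 the match starts 146 bases before the start, in Ankrd1 the matches start at 210 and 123 bases and in Myl9 the CArG box starts at 161 bases.
Acta2: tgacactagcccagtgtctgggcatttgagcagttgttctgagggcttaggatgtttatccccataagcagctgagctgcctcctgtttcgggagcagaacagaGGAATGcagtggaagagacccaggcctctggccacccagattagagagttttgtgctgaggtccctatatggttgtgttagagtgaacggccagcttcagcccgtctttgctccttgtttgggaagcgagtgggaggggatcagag
Ankrd1: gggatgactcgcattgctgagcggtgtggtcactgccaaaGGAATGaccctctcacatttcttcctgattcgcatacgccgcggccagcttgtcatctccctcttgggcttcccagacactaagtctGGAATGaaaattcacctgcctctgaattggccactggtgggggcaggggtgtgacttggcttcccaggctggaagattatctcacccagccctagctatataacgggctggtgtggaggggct
Myl9: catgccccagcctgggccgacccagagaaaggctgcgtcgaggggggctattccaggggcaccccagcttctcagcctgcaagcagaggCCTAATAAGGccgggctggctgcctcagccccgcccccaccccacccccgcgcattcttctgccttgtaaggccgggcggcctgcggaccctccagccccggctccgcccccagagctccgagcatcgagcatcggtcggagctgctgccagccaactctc
Of the 360 genes higher in HSC, 260 had a promoter in the table. GGAATG was found in 49 of them (18.85%), against 1275 of the 9909 promoters of tested genes (12.87%) and 3880 of all 27025 promoters (14.36%). A CArG box was found in 9 (3.46%), against 147 (1.48%) and 439 (1.62%). In each window only the motif named for that gene was marked, and overlap between motifs was not examined. The CArG box was searched in its strict form, CC and GG around A or T bases only, so looser forms stay in lower case. A match describes the letters and does not show binding.

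Matrix genes were separated in similar numbers. Of 36 matrix glycoproteins and proteoglycans, 19 were higher in HSC and 0 lower, every HSC array lay above every fresh array for 25, and the median difference was 2.82. Besides Tnc, Postn, Thbs1 and Dcn, the fibulin gene Fbln2 read 1401 and 1480 at day 1, 8432 at day 7 and 12646 at day 14, against 196.2 to 299.3 on the fresh arrays. Fn1, fibronectin, was not called: it read 6201 to 17512 in HSC, but hepatocytes, the nearest cell type, reached 7434. Of 22 collagen genes 8 were higher and 0 lower, with a median difference of 0.83. Col1a1, the main chain of collagen I, read 935 and 905 at day 1, 6807 at day 7 and 11780 at day 14, against 335.3 to 412.6 on the fresh arrays, a difference of 2.67 from hepatocytes (SE 0.725, limma adjusted p = 0.0092). Col14a1, Col8a1 and Col12a1, collagens of fibril surfaces and short-chain networks, were higher by 3.02, 2.99 and 2.33. The basement membrane chains Col4a1 and Col4a2 were not called, since LSEC reached 1828 and 1923 beside the lowest HSC values of 1535 and 1354.

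Enzymes that fold, trim and cross-link collagen had 10 of 20 members higher and 0 lower, with a median difference of 1.26. Lox, the lysyl oxidase that cross-links collagen, read 5062, 5068, 11655 and 11812 in order of culture time, against 56.8 to 826.7 on the fresh arrays, a difference of 4.13 from hepatocytes (SE 0.395). Plod2, a lysyl hydroxylase, was higher by 3.48 and Serpinh1, the collagen chaperone HSP47, by 2.16. Serpinh1 was level over culture, at 3108, 3730, 3944 and 3624. Of 25 matrix proteases and inhibitors 11 were higher and 0 lower. Mmp2, the gelatinase of mesenchymal cells, read 3396, 3068, 4256 and 4404, against 195.5 to 706.5 on the fresh arrays, and Timp2 was not called because Kupffer cells reached 3019. Timp3 was called at a difference of 1.04 from LSEC, close to the threshold of 1, and lost the call without LSEC replicate 1 or without the second day 1 HSC array, where the difference fell short of 1.

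Growth factor signalling genes followed. Among 29 genes of TGF-beta, BMP and activin signalling 9 were higher and 0 lower, with a median difference of 0.81. Tgfb3 read 3375, 6062, 7242 and 6893, against 113.7 to 447.0 on the fresh arrays, and the follistatin-like gene Fstl1 read 6089 to 9019, against 84.8 to 700.2. Both were separated, by 2.71 and 2.98. Bmp10, a ligand of endothelial receptors, read 2852, 5207, 3712 and 457.2, against 69.2 to 78.1 on the fresh arrays, so the 14-day array was the low one. Bmp4 and the receptor gene Bmpr1a were not called, at 0.70 from LSEC and 0.51 from hepatocytes. Of 27 genes of PDGF, FGF, EGF and related signalling 8 were higher and 0 lower. Pdgfra read 3672, 2868, 2120 and 1861, against 119.2 to 193.6 on the fresh arrays. Pdgfrb was higher and Pdgfra lower at days 7 and 14 than at day 1 by values, with changes of 0.67 and -0.69 on the log2 scale that stayed under the threshold of 1. Egfr read 3448 to 5205 in HSC and up to 6132 in hepatocytes and was not called.

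Of 32 genes that mark stellate cells in liver 16 were higher and 0 lower, with a median difference of 1.43, and every HSC array lay above every fresh array for 18. Besides Des, Pdgfrb, Dcn and Foxf1, the list held Reln, a secreted glycoprotein of neuronal layering that stellate cells also make. Reln read 4331 and 4597 at day 1, 2270 at day 7 and 276.6 at day 14, against 146.9 to 225.1 on the fresh arrays. It was called (difference 2.90, SE 0.679, limma adjusted p = 0.0048), and its 14-day value stood only 0.22 above the highest fresh array. Lrat, the enzyme that makes retinyl esters for storage, was not called: it read 257.3, 353.5, 704.7 and 456.8 in HSC and up to 323.0 in Kupffer cells. Agtr1a, the angiotensin receptor, was not called either, since its lowest HSC value of 697.9 lay below the highest hepatocyte value of 740.8. Of 24 genes of retinoid storage and response 2 were higher, Aldh1a2 and Rarb, and 1 was lower, Pnpla2, with a median of -0.25. Over all genes 3.02% were called higher and 0.372% lower. Aldh1a2, which makes retinoic acid, read 170.8, 149.7, 875.4 and 484.5, against 59.4 to 90.3 on the fresh arrays. Rarb, a retinoic acid receptor, lost its call without LSEC replicate 1 or without LSEC replicate 3 (adjusted p = 0.0518 to 0.0707). Pnpla2, a triglyceride lipase, read 583.3 to 918.5 in HSC and 1549 to 2182 on the fresh arrays, and lost its call without LSEC replicate 3 or without the 14-day array, where the difference from one cell type fell short of 1.

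Of 33 transcription factors of the mesenchyme 11 were higher and 0 lower, with a median difference of 0.85. Besides Foxf1, the T-box gene Tbx20 read 2057, 2207, 1640 and 780.2, against 66.9 to 97.7 on the fresh arrays, and Prrx1, a homeobox factor of fibroblasts, read 690.2, 698.0, 3408 and 4078, against 87.3 to 149.8. Both were separated at every culture time, Tbx20 with its lowest value at day 14 and Prrx1 with its lowest at day 1. Gata6 was not called, since hepatocytes reached 2735, above the HSC values of 2153 to 2379. Among 31 axon guidance genes 9 were higher and 0 lower. Slit3, counted among the 9, lost its call in 10 of 13 settings that left out 1 array (limma adjusted p = 0.0502 to 0.0711). Sema3d, a secreted semaphorin, read 1834, 1901, 2463 and 1495, against 55.0 to 108.5 on the fresh arrays, a gap of 3.04. Sema3a read 865.1 to 2160, against 81.2 to 151.9. Of 33 integrin, cadherin and adhesion genes 9 were higher, including the N-cadherin gene Cdh2, which read 4077, 3873, 4210 and 2990 in HSC and up to 1537 in hepatocytes. Cd44, the hyaluronan receptor, was not called, with Kupffer cells at up to 4897.

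Among secreted cytokines and prostanoid genes 8 of 28 were higher and 0 lower. Csf1, the growth factor of macrophages, read 8255, 8705, 8832 and 8284 in HSC, a range of 0.10, against 191.1 to 2875 on the fresh arrays. Tnfrsf11b, the decoy receptor osteoprotegerin, read 6126, 6676, 3814 and 2442, against 148.8 to 219.0. Both kept every HSC array above the fresh ones. Of 23 receptors and signalling genes of vasoactive agents 5 were higher and 0 lower. Npr3, the clearance receptor for natriuretic peptides, read 3021, 3631, 5869 and 5350, against 133.7 to 197.0, and the nitric oxide receptor subunits Gucy1a1 and Gucy1b1 were higher by 2.12 and 2.46. S1pr3, a sphingosine phosphate receptor, was called at adjusted p = 0.029 but not separated: it read 6729 and 7995 at day 1, 1070 at day 7 and 232.8 at day 14, below the highest fresh value of 295.3. Its call was lost without any 1 of the LSEC arrays or either day 1 array, at adjusted p = 0.0574 to 0.0839 in limma.

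**Figure D3:**
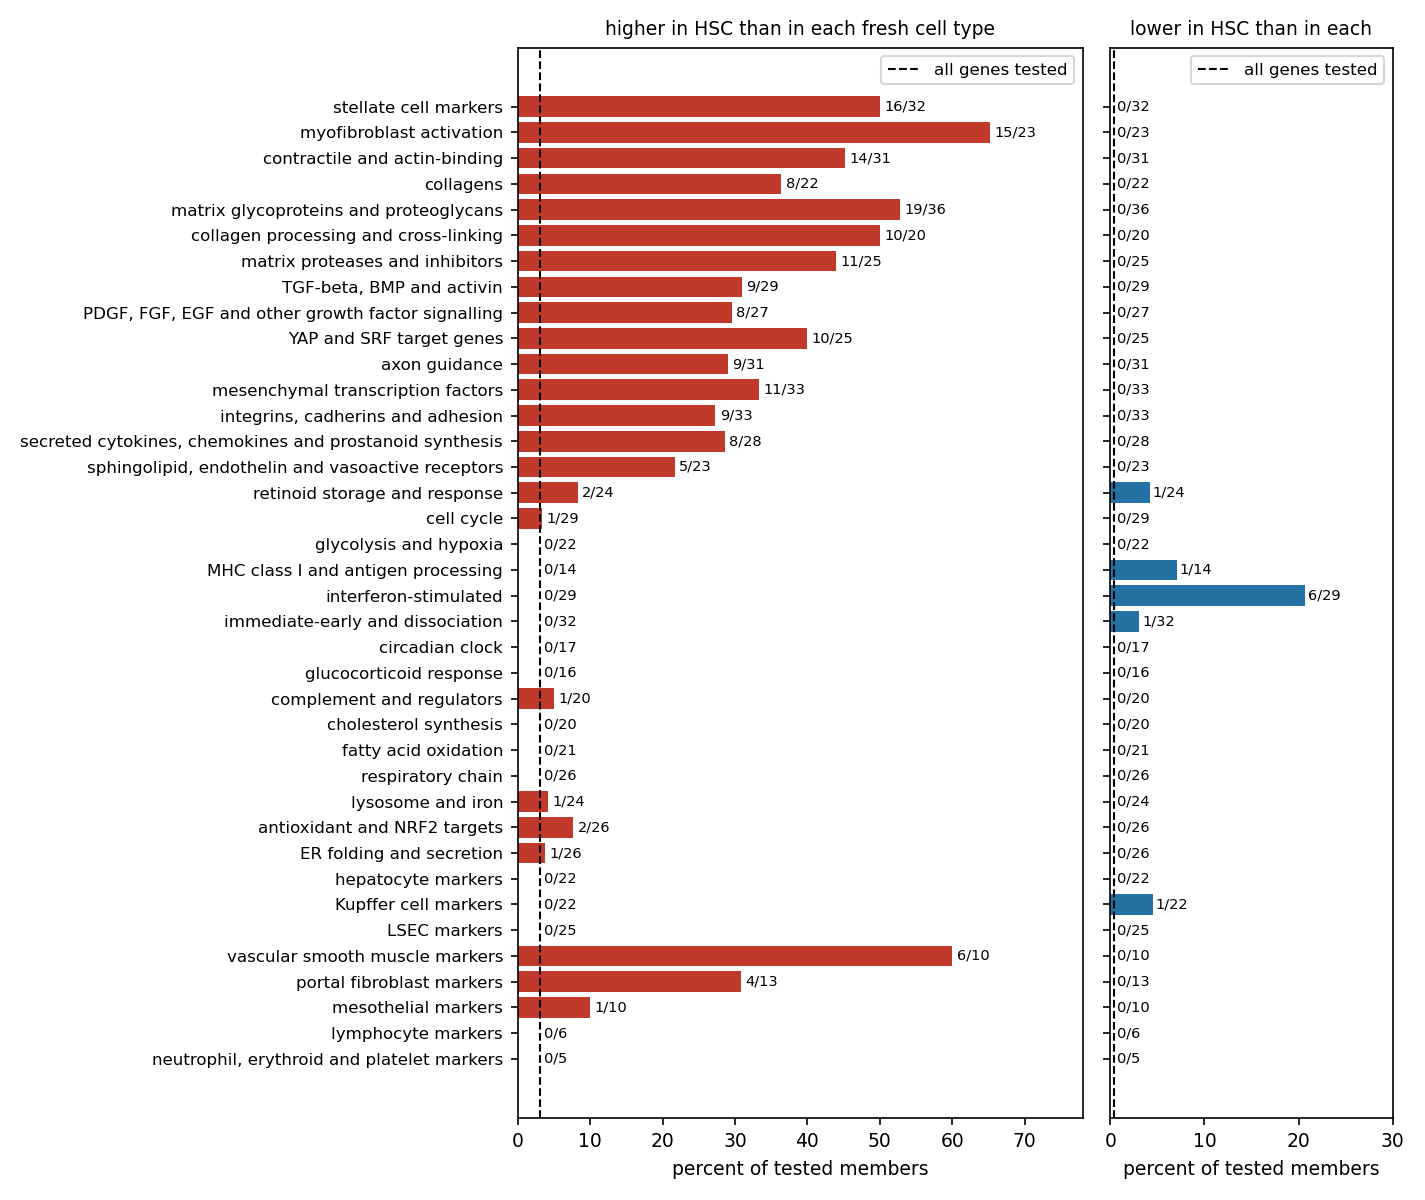
Percent of the tested members of each gene list (those with at least 5 tested members) that were called higher (left, red) or lower (right, blue) in HSC than in each fresh cell type; numbers give called over tested members and the dashed line the percent over all genes (3.02% and 0.372%). The myofibroblast activation genes reach 65.2% on the left and the interferon-stimulated genes reach 20.7% on the right.

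Other mesenchymal cells share many of these genes. Of 10 vascular smooth muscle markers tested 6 were higher in HSC, and their list summed to 11605 and 12082 at day 1, 29586 at day 7 and 29057 at day 14, against 2070 to 3231 on the fresh arrays. Of 13 portal fibroblast markers 4 were higher, and that list summed to 6028, 6502, 18677 and 25505, against 2917 to 5721. Mustn1, a small nuclear protein of muscle, and Kcnmb1, a subunit of the calcium-activated potassium channel, were among the smooth muscle genes, with differences of 3.27 and 2.87. The portal fibroblast genes Fbln2 and Mfap5 were separated on every HSC array. Thy1, also called, lost its call in 11 of 13 settings that left out 1 array (limma adjusted p = 0.0878 to 0.118). Dpt was called but not separated, and lost its call in 9 of 11 (0.0527 to 0.089). Whether smooth muscle cells or portal fibroblasts contributed to the HSC arrays was not tested. In 4 metabolic lists 0 of 22 glycolysis genes, 0 of 21 fatty acid oxidation genes, 0 of 26 respiratory chain genes and 0 of 20 cholesterol synthesis genes were called in either direction, by the same limma rule. Over all genes 3.02% were called higher and 0.372% lower, so 0 in lists of this size is near those shares. At an unadjusted p below 0.05 against all 3 cell types, whatever the size, 1 member of each of these 4 lists was lower and 0 were higher. Among the remaining lists, complement, lysosome and ER folding genes had 1 higher member each (Masp1, Ctsk and Kdelr3) and antioxidant genes 2 (Gpx8 and Sod3). The shares were 5.0% of 20, 4.2% of 24, 3.8% of 26 and 7.7% of 26 genes, beside 3.02% of all genes. Circadian clock, glucocorticoid response, hepatocyte, LSEC, cholangiocyte, lymphocyte and blood cell lists had 0 calls, again near the shares of all genes for lists this small. At an unadjusted p below 0.05 in limma a single glucocorticoid response gene was lower and a single cholangiocyte gene higher. Mesothelial and Kupffer cell lists had 1 call each, Podn higher of 10 genes and Cd68 lower of 22, beside 3.02% and 0.372% of all genes. Podn lost its call without the 14-day array and Cd68 without the 7-day array or LSEC replicate 3, where a difference fell short of 1. Of 29 cell cycle genes 13 were called higher at days 7 and 14 than at day 1, beside 5.52% of all genes. HSC as a whole was called higher for 1 (3.4%, beside 3.02% of all genes), the cyclin gene Ccnd2. Ccnd2 lost its call without the 7-day array, where the difference fell short of 1.

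The genes below every fresh array were fewer and their gaps narrower. Interferon-stimulated genes had the most members called lower among the lists. Of 29 tested, 6 (20.7%) were called lower and 0 higher, beside 0.372% of all genes lower, and their median difference was -1.07. Every HSC array lay below every fresh array for 8 of the 29, beside 4.89% of all genes. At an unadjusted p below 0.05 in limma against all 3 cell types 13 were lower and 0 higher. The share of all genes at that looser threshold was not counted, and 0.372% does not apply to it. Rsad2, the antiviral protein viperin, read 518.1 and 595.3 at day 1, 157.2 at day 7 and 181.4 at day 14, against 1314 to 3501 (median 2546) on the fresh arrays, a difference of -2.32 from LSEC (SE 0.383, limma adjusted p = 0.00058). Usp18, which removes ISG15 from proteins, read 338.5, 485.3, 472.0 and 391.2, against 1091 to 2362. Oasl1, a relative of the oligoadenylate synthases, read 279.7, 349.9, 242.6 and 354.1, against 828.6 to 4220. No HSC array reached the lowest fresh array in these 3 genes. They were also picked for the width of their gap below the fresh arrays, so this lack of overlap follows from the selection. The other called members were Stat2 and the GTPase gene Iigp1, both separated, and Rtp4, whose day 1 value of 471.7 lay above the lowest fresh value of 277.4. Rtp4 lost its call without hepatocyte replicate 1 or 2 (adjusted p = 0.0838 and 0.0839 in limma), Iigp1 without LSEC replicate 1, where a difference fell short of 1, and Stat2, for which hepatocytes were nearest, in 5 of 13 settings that left out 1 array, again on the size of the difference. Irf7, a master factor of the interferon response, was not called, at 257.1 to 627.1 in HSC and 458.9 to 4947 on the fresh arrays.

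Of 14 genes of MHC class I and antigen processing 1 was lower, Irf1, beside 0.372% of all genes. Every HSC array lay below every fresh array for 4 of them, beside 4.89% of all genes, and the median difference was -0.91. Irf1, a factor that drives class I genes, read 153.1 to 292.7 in HSC and 459.9 to 4304 on the fresh arrays. It lost its call without LSEC replicate 2 or without the 14-day array, where a difference fell short of 1. The immunoproteasome subunit gene Psmb8 was separated, at 119.2 to 203.3 in HSC and 231.7 to 1143 on the fresh arrays, but was not called. Of 32 immediate-early genes 1 was lower, beside 0.372% of all genes. Nfkbia, the inhibitor of NF-kappa-B, was that gene and read 1906, 3071, 926 and 772.2, against 3130 to 9248 on the fresh arrays. Atf3, a stress-induced factor, was separated at 713.2 to 1270 in HSC and 1550 to 9413 on the fresh arrays, but was not called. The fresh cells had been dissociated and sorted and the HSC cultured, and these steps and the cell type cannot be told apart.

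The 12 widest gaps below included the interferon-stimulated genes Oasl1, Usp18 and Rsad2, given above. All 12 genes were picked for this gap, so their lack of overlap follows from the selection. Gm4951 read 119.7 and 145.1 at day 1, 81.7 at day 7 and 71.7 at day 14, against 533.5 to 1968 (median 1279) on the fresh arrays, a gap of 1.43 and a difference of -2.01 from LSEC (SE 0.169, limma adjusted p = 3.5e-06). Hhex, a homeobox factor of liver and endothelium, read 160.1, 127.3, 105.1 and 110.2, against 571.3 to 1587. Selenop, the secreted selenium carrier, read 3145, 3149, 2030 and 2539, against 7749 to 10005, and was well expressed in HSC while lower than in all 3 fresh cell types. Ceacam1, a cell adhesion molecule that acts in insulin clearance, read 92.2 to 199.4, against 499.2 to 3073. Lcp1, an actin bundler of blood cells, read 603.6 to 1241, against 2389 to 7063. Sh3bgrl2, Smagp, Slc22a23 and the apoptosis gene Bcl2l11 completed the 12 widest, with differences from hepatocytes of -1.56, -1.46, -1.63 and -1.26. LSEC was the nearest fresh cell type for 22 of the 42 genes (52.4%), hepatocytes for 16 (38.1%) and Kupffer cells for 4 (9.52%). Alb and Cdh5 transcripts were read on the day 1 HSC arrays, as given above, and their part in the day 1 values of these genes was not tested.

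**Figure D4:**
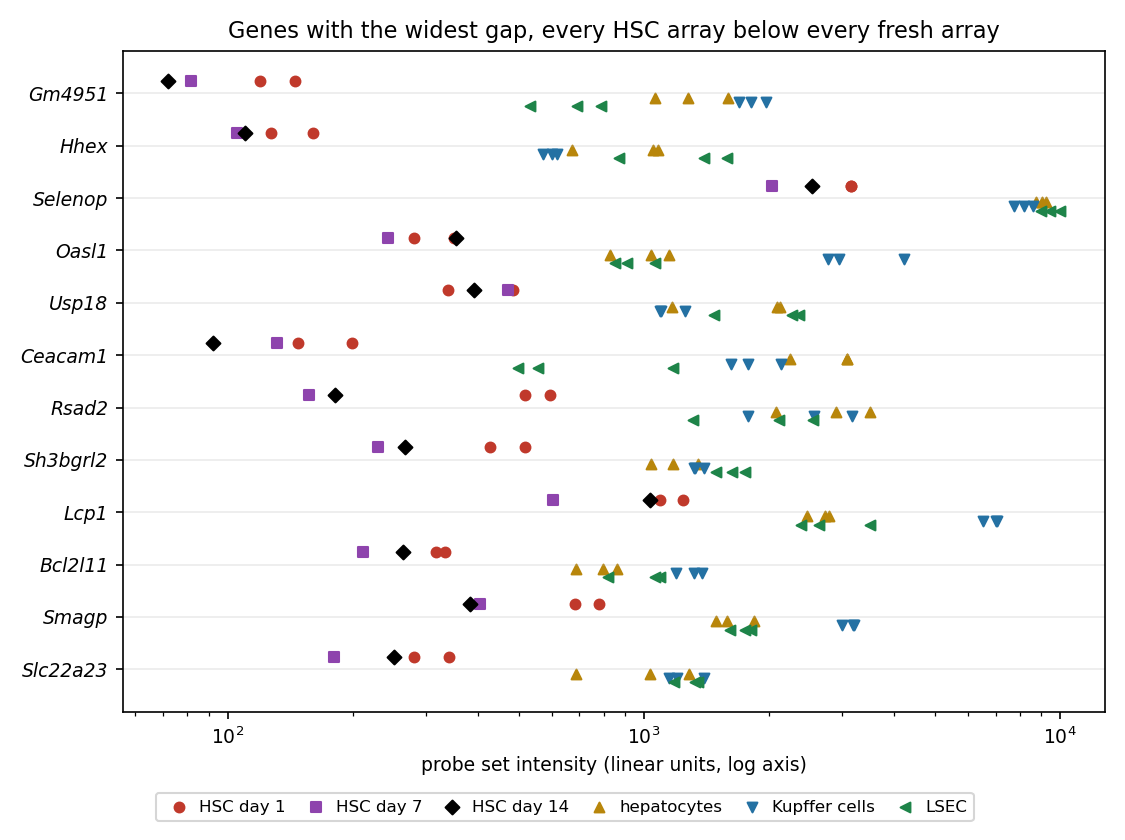
Probe-set intensity (linear units, log axis) of the 12 genes with the widest gap on the low side; each symbol is 1 array, HSC by culture day and the fresh cell types by shape. All 4 HSC symbols lie left of all 9 fresh symbols in each gene, from a gap of 1.43 for Gm4951 to 0.86 for Slc22a23.

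The Rsad2 promoter window is shown as the example among the genes below, since it holds GAAA, any 2 bases and GAAA again, the core of the element that interferon-activated factors bind. It lies on the minus strand at chr12:26456453-26456702 of GRCm38.p6, and the capitals mark the match, here on the opposite strand, which starts 120 bases before the RefSeq gene start.
Rsad2: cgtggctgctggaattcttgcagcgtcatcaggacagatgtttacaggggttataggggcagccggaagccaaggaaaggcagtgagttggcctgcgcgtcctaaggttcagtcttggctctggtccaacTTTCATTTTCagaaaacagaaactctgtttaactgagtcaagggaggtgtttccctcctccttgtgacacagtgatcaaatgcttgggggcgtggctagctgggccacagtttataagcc
Of the 42 genes lower in HSC, 36 had a promoter in the table, and 5 of those held that motif on either strand (13.89%). It was held by 315 of the 9909 promoters of tested genes (3.18%) and 936 of all 27025 promoters (3.46%). Of the 260 promoters of the higher genes 5 held it (1.92%). Tagln, Pdgfrb and Usp18 had no entry.

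Within the 360 genes above all fresh arrays, the level often still moved over culture. Limma, run on 5 groups with the 7-day and 14-day arrays merged, called 143 of them (39.7%) higher at days 7 and 14 than at day 1 and 22 (6.11%) lower, while 195 (54.2%) had no call. Over all genes 5.52% were higher and 4.27% lower, 9.79% in either direction. The median change was 0.67 for the 360 genes and -0.04 over all genes. Among the 42 genes below, 0 were higher and 9 (21.4%) lower, and 33 (78.6%) had no call. These genes were selected on the same HSC arrays, so the shares are a description, and the p-values rest mainly on the spread between arrays of the fresh cell types. Without the 7-day array the number lower was 40 instead of 22.

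The largest rises within the separated genes belonged to genes that were near the fresh level at day 1. Cemip, a hyaluronan-degrading protein, read 226.5 and 253.0 at day 1, 4823 at day 7 and 5204 at day 14, against 105.5 to 132.5 on the fresh arrays. S100a6, a calcium-binding protein, read 265.2, 249.7, 4076 and 6455, against 78.5 to 117.1, and Ogn, the proteoglycan osteoglycin, read 169.5, 151.6, 2949 and 3379, against 28.5 to 37.4. In each the day 1 arrays were already above every fresh array, and days 7 and 14 were higher by 3.98, 3.94 and 3.73 (limma adjusted p = 3.7e-11, 3.1e-09 and 3.7e-11). Actg2, the gamma smooth muscle actin, and the membrane protein gene Tmem45a were next, with changes of 3.72 and 3.60. For 3 of the 5 the call against the fresh cell types turned on single arrays. Cemip lost it in 11 of 13 settings that left out 1 array (adjusted p = 0.0556 to 0.0869), S100a6 in 6 of 13 (0.0525 to 0.0702) and Tmem45a in 6 of 11 (0.0506 to 0.0662).

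The largest falls left some genes close to the fresh level at day 14. Robo2, a receptor for Slit proteins, read 5551 and 6210 at day 1, 1051 at day 7 and 352.0 at day 14, against 87.0 to 156.5 on the fresh arrays. Serpinb2, an inhibitor of plasminogen activators, read 4962, 5941, 959.5 and 393.7, against 70.9 to 121.5. Cxcl12, the chemokine that binds CXCR4, read 8069, 7495, 1420 and 878.5, against 131.4 to 252.6. All 3 stayed above every fresh array at day 14, and days 7 and 14 were lower than day 1 by values of -3.08, -2.97 and -2.71 (limma adjusted p = 7.2e-06, 2.5e-06 and 1.7e-07). Tmem108 and the matrix-binding gene Abi3bp changed by -2.40 and -2.39 and had day 14 values of 192.3 and 138.0, within 0.13 log2 of the highest fresh array. Abi3bp lost its call against the fresh cell types without any 1 of the LSEC arrays (adjusted p = 0.0541 to 0.0690), and Tmem108 in 8 of 13 settings that left out 1 array (0.0578 to 0.0963). Ankrd1 was lower at days 7 and 14 by -0.81, under the threshold of 1.

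**Figure D5:**
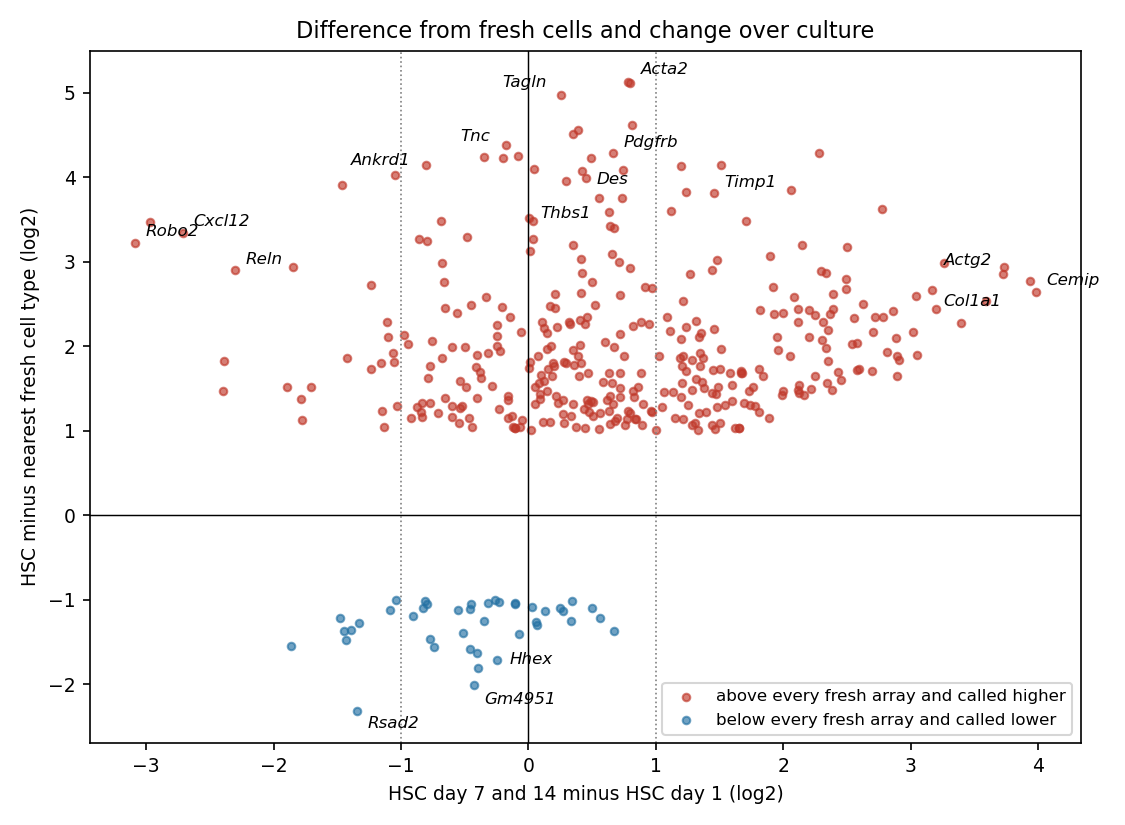
Each symbol is 1 of the 360 genes above (red) or the 42 genes below (blue) every fresh array with a call: the horizontal axis gives the log2 difference of HSC at days 7 and 14 from day 1, the vertical axis the log2 difference of all HSC arrays from the nearest fresh cell type, and the dotted lines mark a change of 1. Tagln, Thbs1 and Tnc lie near 0 on the horizontal axis, Acta2 at 0.80, Cemip and Actg2 on the far right, and Robo2 and Cxcl12 on the far left.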

How the data were processed

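RNA of 13 samples was hybridised as biotin-labelled cRNA to Affymetrix mouse arrays, per the labels. The authors deposited 1 table of summarised probe-set intensity values (linear, 10.6 to 28854) for 25194 probe sets, with array medians of 216.5 to 232.9. Affymetrix Expression Console and MAS5 5.0 are listed, with no role, per the submitters' processing notes. The background correction, the normalization and the genome build are not given in the sources used here. Of the probe sets, 21181 had a single symbol in the platform annotation, 1379 had several and 2634 none, and the last 2 kinds were left out. Of the single ones 21097 were found by Entrez identifier in RefSeq's GRCm38.p6 annotation and 84 were not. Promoter sequences came from RefSeq on the same build.

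From these intensity values each gene was taken from its probe set with the highest mean, kept if above the pooled median of 224.5 on at least 2 arrays, and used as log2(intensity + 83), 83 being close to the pooled 20th percentile. Differences were tested two-sided in R 4.3.3 with limma 3.58.1 on 4 groups and 12368 genes (9 residual degrees of freedom), with Benjamini-Hochberg adjustment within each contrast over all genes, and the change over culture on 5 groups (8 residual degrees of freedom). The separation of arrays is a description without a test. The fits were tested on simulated data.

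Named genes were the 12 widest gaps each way, the 8 smallest HSC ranges among called genes with a gap of at least 2, the 5 largest rises and falls over culture, up to 4 called and 2 uncalled members of each list, and 9 anchor genes. Ddr1, H2-Q4 and Stat2 were added after their values were seen. The members, the 39 lists, the rule and the alternatives were chosen with earlier results of these data known. Lists are described by counts and medians only. Same-numbered replicates of different groups did not deviate together (r = -0.109 to 0.107). With 2 or 3 arrays in a group this cannot tell whether same-numbered arrays shared an animal, which the titles do not say.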

Additional observations from a re-analysis of the deposited data

Results flagged for a closer look

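In 6 of the 173 named genes 1 HSC array stood apart from the other 3, in a comparison that chance meets in about 1 of 20 groups. The share of 6 in 173 is smaller than that, so the genes are listed as a description. The comparison took the arrays of all culture days as one group and ignored how large the range was. Agtr1a, the angiotensin receptor, read 2235 at day 7 against 697.9 to 781.0 on the other HSC arrays. Dpp4, a cell-surface peptidase, read 810.7 at day 7 against 135.1 to 214.1. Sod3, the extracellular superoxide dismutase, read 1917 at day 7 against 538.5 to 719.8, and Axl read 7261 at day 7 against 5678 to 5745. Bmpr1a read 2445 at day 14 against 1570 to 1681, and Dcn read 12317 at day 14 against 11402 to 11557. Days 7 and 14 had 1 array each.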

How the results depend on the processing

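The counts of 373 genes called higher and 46 called lower in HSC stayed within 1.5 times under the other pseudocounts, filters, quantile normalization, probe-set averaging, 5 groups and limma-trend, except 27 lower genes with the pooled median as pseudocount. With the 7-day and 14-day HSC arrays alone the counts were 619 and 86, and with all fresh arrays as one group 593 and 129. Leaving out 1 array gave 319 to 452 genes higher and 33 to 53 lower. Separation rests on how many HSC arrays must clear the fresh ones: the 845 genes above and 605 below became 1786 and 1316 with day 1 arrays alone and 1637 and 1603 with 7-day and 14-day arrays alone, and leaving out 1 array gave 850 to 974 and 619 to 759. A filter at the pooled 75th percentile, which tests fewer genes, left 354 below. Over culture, leaving out 1 HSC array gave 120 to 147 of the higher genes rising, 16 to 40 falling and 7 to 10 of the lower genes falling, and the pooled median as pseudocount gave 5 of the latter. Whether the replicate numbers pair the arrays is not known. With the replicate number as a block on the 11 numbered arrays, which leaves only day 1 HSC, 309 genes were higher and 36 lower, of which 252 and 25 were shared with the full comparison.

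Of 173 named genes 144 kept their call, or its absence, whichever array was left out, and 29 did not. With day 1 HSC arrays alone 16 of the named genes lost their call: Actg2, Ccnd2, Cd68, Cemip, Ddr1, H2-Q4, Irf1, Itga1, Nfkbia, Pnpla2, Podn, Rarb, Rtp4, S100a6, Slit3 and Stat2. The block on the same HSC arrays lost these except Rtp4, and Col12a1 besides. S1pr3 lost its call with 7-day and 14-day arrays alone. Aldh1a2, Bcl2l11, Ddr1, Dpt, Iigp1, Irf1, Pnpla2, Podn, Stat2 and Thy1 lost theirs with the pooled median as pseudocount. Quantile normalization lost Irf1, Pnpla2, Thy1 and Timp3, and testing without a filter lost Cemip, Dpt, H2-Q4, S1pr3, Thy1 and Tmem108. Irf1 also lost its call with all fresh arrays as one group and with the mean over probe sets. The difference from the mean of the fresh cell types changed sign in uncalled genes: Ccl5 was at 0.69 with day 1 alone and 0.98 with the block, Ccna2 at -0.048 and -0.048, Slc4a2 at -0.28 and -0.28, and Cxcl2 at 0.0035 with the block. The cause of these changes was not tested. With 1 array each at days 7 and 14, the number of arrays limits what can be said of culture time, and values near the low end of the intensity scale limit the folds.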
